A study of Mus musculus with 2 samples.

Results

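The H3K9bhb peaks described here lie at the ends of long non-coding RNA (lncRNA) genes in mouse CD8+ memory T cells. Each peak was represented by 1 summit, the position of its strongest signal, and by the lowest coordinate where a peak had several. A peak was taken when its summit lay within 2 kb of the start or the end of a gene of biotype lncRNA in the RefSeq table for build mm10. This gave 366 of the 2195 peaks on nuclear chromosomes (16.7%, 95% interval 15.1 to 18.3), out of 2204 peaks in all. Of the 366, 279 (76.2%, 71.5 to 80.5) also lay within 2 kb of a protein-coding gene's start or end and are called shared peaks. The other 87 (23.8%, 19.5 to 28.5) had no protein-coding gene end that near and are called lncRNA-only peaks. Over all 2195 nuclear peaks, 1809 lay within 2 kb of a protein-coding gene end, a larger share than the 76.2% of members. Intervals are exact Clopper-Pearson intervals and cover counting error only.

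The cells came from spleens of C57BL/6 mice carrying the OT-I T cell receptor, which recognises an ovalbumin peptide. Per the labels, splenocytes received that peptide at 200 ng/ml together with IL-2 at 10 ng/ml for 3 days, then IL-15 at 10 ng/ml for 4 days, and were exposed to β-hydroxybutyrate (BHB) for 3 days at a dose the labels do not state. One chromatin immunoprecipitation library with antibody PTM-1250 and one input DNA library were made from such treated cells, with paired-end reads of 150 bp and 70 M reads stated for each. No untreated culture and no second immunoprecipitation was analysed here, so a peak is a place called in treated cells, no spread between cultures can be given and no test was run. Each peak carries the authors' own score, a −log10 p or q value (the sources used here do not say which), and the read depth behind a single peak is unknown. None of the 12 CD8 T cell markers examined had a summit at an end, 2 of 9 memory or naive T cell markers did (Foxo1 and Eomes), and none of 14 markers of B, myeloid, CD4 or regulatory T and NK cells did. The share over all protein-coding genes was 9.34%, and a peak is not a measure of expression.

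Long non-coding RNAs are transcripts without a long protein-coding frame. Many begin beside the start of a protein-coding gene on the opposite strand, so that a pair of genes shares one stretch of open, CpG-rich DNA, and such a pair is called divergent or head to head. Others lie alone or within other genes, and some carry small RNAs in their introns that are cut out of the transcript. H3K9bhb is a modification of histone H3 lysine 9 derived from the ketone body BHB and has been described at active promoters.

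The promoters below show the DNA under members of each kind and hold the summit within their own window. They are RefSeq sequences of assembly GRCm38.p6 (mm10), from 250 bases before to 50 bases after an annotated transcript start, written 5′ to 3′ on the strand of the lncRNA gene. Capitals mark matches on either strand to 6 motifs: the TATA box TATAAA, the box named after its letters CCAAT, the GC box GGGCGG, the ETS factor core CGGAAG, the palindrome bound by NRF1, and the cyclic AMP response element TGACGTCA. A match is a description of the letters and not a sign of binding. The first 5 belong to shared peaks, each head to head with the coding gene named here: Dgkeos with Dgke (chr11:89060501-89060800, plus strand, summit 11 bases after the start), Foxl2os with Foxl2 (chr9:98955261-98955560, minus strand, summit 91 bases before the start), Cep83os with Cep83 (chr10:94688564-94688863, minus strand, 118 before), Gm30977 with Dnal4 (chr15:79774278-79774577, plus strand, 209 before) and Gm26725 with Rbm47 (chr5:66150754-66151053, plus strand, 144 before).
Dgkeos: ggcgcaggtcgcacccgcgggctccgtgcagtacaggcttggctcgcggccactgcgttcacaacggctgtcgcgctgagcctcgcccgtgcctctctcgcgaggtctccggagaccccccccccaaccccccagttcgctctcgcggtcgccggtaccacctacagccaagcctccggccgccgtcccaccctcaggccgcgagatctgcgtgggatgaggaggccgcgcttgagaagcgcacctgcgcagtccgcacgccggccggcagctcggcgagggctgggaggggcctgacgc
Foxl2os: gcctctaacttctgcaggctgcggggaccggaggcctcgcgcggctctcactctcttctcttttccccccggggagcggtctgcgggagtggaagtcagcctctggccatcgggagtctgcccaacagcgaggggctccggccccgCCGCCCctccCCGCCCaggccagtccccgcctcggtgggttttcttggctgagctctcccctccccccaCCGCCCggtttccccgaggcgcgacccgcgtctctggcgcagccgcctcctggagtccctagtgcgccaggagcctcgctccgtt
Cep83os: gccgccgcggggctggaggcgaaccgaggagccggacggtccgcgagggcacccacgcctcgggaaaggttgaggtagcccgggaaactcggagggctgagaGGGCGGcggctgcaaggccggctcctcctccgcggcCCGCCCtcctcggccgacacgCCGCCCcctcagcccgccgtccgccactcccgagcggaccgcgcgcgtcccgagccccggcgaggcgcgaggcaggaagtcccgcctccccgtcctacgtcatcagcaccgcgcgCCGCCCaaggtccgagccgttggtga
Gm30977: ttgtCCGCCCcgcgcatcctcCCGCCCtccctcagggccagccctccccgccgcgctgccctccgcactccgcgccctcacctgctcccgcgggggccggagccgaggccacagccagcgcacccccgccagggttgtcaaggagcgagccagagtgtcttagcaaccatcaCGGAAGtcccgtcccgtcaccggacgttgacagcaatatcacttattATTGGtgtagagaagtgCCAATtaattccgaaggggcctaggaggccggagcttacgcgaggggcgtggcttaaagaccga
Gm26725: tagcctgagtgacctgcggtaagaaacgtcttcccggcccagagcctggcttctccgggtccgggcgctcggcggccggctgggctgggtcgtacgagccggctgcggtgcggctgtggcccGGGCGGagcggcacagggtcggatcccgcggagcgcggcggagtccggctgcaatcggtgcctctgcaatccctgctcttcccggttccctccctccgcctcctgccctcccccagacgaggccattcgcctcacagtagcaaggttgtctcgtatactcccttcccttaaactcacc

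The next 3 belong to lncRNA-only peaks: Dleu2 (chr14:61682324-61682623, minus strand, summit 197 bases before the start), B230319C09Rik (chr6:83441505-83441804, plus strand, 197 before) and Gm51674 (chr9:50698821-50699120, plus strand, an annotated start inside the gene, 133 before).
Dleu2: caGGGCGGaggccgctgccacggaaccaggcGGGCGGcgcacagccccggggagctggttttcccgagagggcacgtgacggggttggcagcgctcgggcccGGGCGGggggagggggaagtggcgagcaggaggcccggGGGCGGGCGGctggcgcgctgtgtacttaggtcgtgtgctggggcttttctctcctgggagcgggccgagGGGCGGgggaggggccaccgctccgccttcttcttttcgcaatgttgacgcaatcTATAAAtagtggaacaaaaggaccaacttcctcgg
B230319C09Rik: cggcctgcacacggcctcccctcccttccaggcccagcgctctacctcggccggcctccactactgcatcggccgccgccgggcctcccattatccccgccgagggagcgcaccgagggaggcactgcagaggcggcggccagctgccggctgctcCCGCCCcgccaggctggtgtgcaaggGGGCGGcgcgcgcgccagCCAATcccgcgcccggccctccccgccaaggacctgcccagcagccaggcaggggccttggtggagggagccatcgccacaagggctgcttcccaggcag
Gm51674: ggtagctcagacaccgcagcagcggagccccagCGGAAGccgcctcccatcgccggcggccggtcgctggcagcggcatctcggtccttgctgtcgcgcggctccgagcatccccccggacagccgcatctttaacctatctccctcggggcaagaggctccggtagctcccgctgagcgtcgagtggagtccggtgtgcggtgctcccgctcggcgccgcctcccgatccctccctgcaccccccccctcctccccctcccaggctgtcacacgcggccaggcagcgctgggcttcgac

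All 8 were rich in G and C, from 65.7% in Gm30977 to 76.7% in Cep83os. GGGCGG occurred 6 times in Dleu2 and 4 times in Cep83os. Dleu2 also held TATAAA, which lay after the annotated start. The promoter of Dgkeos held none of the 6 motifs, although its summit lay 11 bases from the start and its score was 7.89. In all, 68 of the 366 summits lay inside a tabled promoter of a lncRNA gene, 58 of them shared and 10 lncRNA-only.

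The peaks touched 365 lncRNA genes, of which 357 had 1 peak, 7 had 2 and Foxl2os had 3. That is 2.87% of the 12727 lncRNA genes on the nuclear chromosomes with a summit within that distance, while 2045 of 21887 protein-coding genes (9.34%) did. A summit was found more often at lncRNA genes with a coding gene end nearby than at those without. Of 2720 lncRNA genes with a coding gene end within 2 kb of one of their own, 289 (10.6%, 9.49 to 11.8) had a summit. Of the 10007 without one, 76 (0.759%, 0.599 to 0.95) did. Protein-coding genes showed a smaller step in the same direction, with 12.3% of 2947 genes beside a lncRNA end and 8.88% of 18940 others having a summit. Neighbouring genes share a peak, so the genes are not independent and these intervals are too narrow.

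Measured per length of DNA, lncRNA ends away from coding gene ends still held more summits than DNA away from both kinds of gene end. The windows of 2 kb around lncRNA ends that lay outside those of coding genes covered 81.7 Mb, 3.20% of the annotated span outside coding-gene windows. They held 87 of the 386 nuclear peaks that were not at a coding end (22.5%, 18.5 to 27.0). These 87 were not all away from coding genes, as 54 lay inside one. Of the 87, 30 lay within 2 kb of a coding transcript start inside the bounds of a gene, as did 117 of the 299 peaks outside both kinds of window. The density in these lncRNA windows was 1.06 peaks per Mb, against 0.121 per Mb outside both kinds of window. It was 11.1 per Mb in windows of coding genes alone and 25.1 per Mb in the 11.1 Mb where both kinds of window overlapped. Among genes of known strand, lncRNA start windows outside coding windows held 57 peaks at 1.82 per Mb, and transcript-end windows held 23 at 0.670 per Mb.

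The lncRNA start, not the transcript end, was the near end. The strand of the nearest lncRNA gene was known for 292 peaks, and in 253 (86.6%, 82.2 to 90.3) the nearest end was its start, in 88.4% of shared and 80.9% of lncRNA-only peaks. Over all lncRNA genes of known strand, 257 of 9533 (2.7%) had a summit within 2 kb of the start and 79 (0.829%) within 2 kb of the transcript end. For coding genes the values were 9.07% and 0.829%, so the shares differed at the starts and were alike at the transcript ends.

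Most shared summits lay outside the lncRNA gene whose end was nearest. The median distance to the lncRNA end was 411.5 bp (quartiles 206 and 856.5), and 202 of 366 summits (55.2%) lay within 500 bp. Of the shared summits, 91 of 279 (32.6%, 27.1 to 38.5) lay inside the lncRNA gene. Of the lncRNA-only summits, 40 of 87 (46.0%, 35.2 to 57.0) did, and these intervals overlap. By contrast, 83.9% of the 1530 summits at coding ends alone lay inside the coding gene, as did 237 of the 279 shared summits (84.9%). In the shared class, 170 summits lay inside the coding gene but outside the lncRNA, 67 inside both, 24 inside the lncRNA but not the coding gene, and 18 outside both. The coding end was the nearer in 188 of 279 (67.4%, 61.5 to 72.9), with 3 ties, and its median distance of 235 bp was close to the 230 bp of peaks at coding ends alone.

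**Figure D1:**
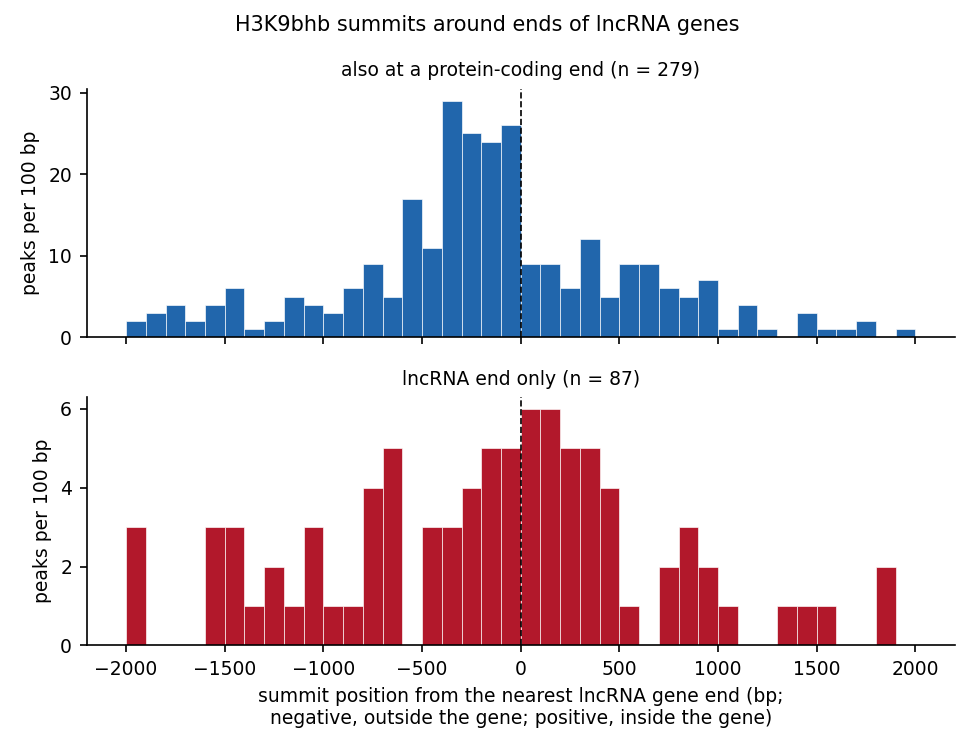
Number of summits per 100 bp (vertical axis) by signed distance in bp from the nearest lncRNA gene end (horizontal axis; positive inside the gene), for the 279 shared peaks (top) and the 87 lncRNA-only peaks (bottom). Of the shared summits, 188 of 279 lie outside the lncRNA gene, at any distance up to 2 kb. The lncRNA-only summits lie on both sides, with 40 of 87 inside.

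Most shared peaks lay at head-to-head starts. Strands of both genes were known for 206 of the 279, and in 167 (81.1%, 75 to 86.2) the nearest ends were the starts of an lncRNA and a coding gene on opposite strands. In 20 peaks a coding start met an lncRNA transcript end, in 10 both starts ran on the same strand, in 6 an lncRNA start met a coding transcript end, and in 3 both were transcript ends. Where both nearest ends were starts, 167 of 177 (94.4%) were on opposite strands. The annotation by itself gives 95.8% (1201 of 1254 lncRNA starts with a coding start within 2 kb), so the orientation is that of the gene catalogue and nothing particular to the peaks can be read from it.

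Within the head-to-head pairs the summit followed the coding gene. In 86 pairs the starts were apart, by a median of 122 bp (quartiles 55.8 and 297.8), and in 81 the genes overlapped at their heads, by a median of 495 bp. Where they were apart, the summit lay past the coding start, inside the coding gene, in 66 of 86 (76.7%, 66.4 to 85.2), between the starts in 15 and inside the lncRNA in 5. Where they overlapped, 33 of 81 summits fell in the overlap, 40 on the coding side of it and 8 on the lncRNA side. Over all 167 pairs the summit lay at a median of 215 bp past the coding start (quartiles 62.5 and 469), and it was nearer the coding start in 107 (64.1%, 56.3 to 71.3).

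**Figure D2:**
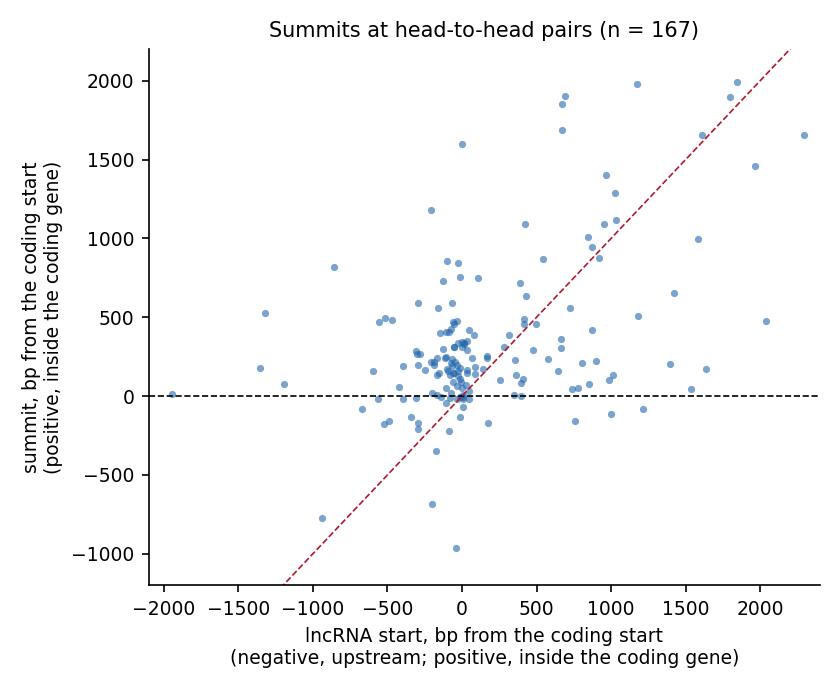
The vertical axis gives the position of each summit from the coding start in bp, positive inside the coding gene. The horizontal axis gives the position of the lncRNA start from the coding start in bp. It is negative where the starts are apart and positive where the genes overlap at their heads. There is 1 point per peak for the 167 head-to-head pairs. Dashed lines mark the coding start and the lncRNA start. Most points lie on the coding-gene side of the coding start, at a median of 215 bp.

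The strongest shared peaks lay beside genes of varied function. Tspan2os and Tspan2, a tetraspanin of the cell membrane, had the highest score of the 279, 17.8, in a head overlap of 647 bp with the summit 157 bp past the coding start. Gm51822 lay at Cs, citrate synthase of the citric acid cycle, with a score of 14.7. Gm15850 at Kif21b, a kinesin motor, scored 13.7, and 2810425M01Rik at Fam207a scored 13.4. Gt(ROSA)26Sor, the Rosa26 locus widely used to carry transgenes, shared a summit of score 13.2 with Setd5, a SET-domain protein, at 45 bp from the lncRNA and 27 bp from the coding start, and had a second peak of 5.63.

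Several of the next pairs were of the plain divergent kind. Gm30977 at Dnal4, a dynein light chain, and Gm34106 at Rassf1, a Ras-association tumour suppressor, both scored 11.9, with starts 61 bp and 597 bp apart. D430020J02Rik at Ncapg2, a condensin II subunit, scored 11.8. Gm36446 at Katnal1, a katanin-like microtubule severing protein, and Gm45914 at Swsap1, a recombination factor, both scored 11.3 in head overlaps of 356 bp and 253 bp. These summits lay between 102 bp and 229 bp past the coding start.

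A group of 7 peaks had scores of 10.5. They lay at Gm42199 with Gpr160, an orphan receptor; Gm26725 with Rbm47, an RNA-binding protein; Gm46200 with Nrbf2, part of an autophagy kinase complex; Gm30101 with Siva1, an apoptosis protein that binds CD27; 1700084E18Rik with Lrrc8a, the essential subunit of the volume-regulated anion channel; Gm39859 with Hnrnpa3, a splicing-related RNA-binding protein; and Gm35977 with Cdc37, a kinase co-chaperone of Hsp90. At Lrrc8a, Hnrnpa3 and Cdc37 the summit was 3, 10 and 21 bp from the coding start, with the lncRNA start 138, 168 and 34 bp away from that of the coding gene. B130034C11Rik with Cct8, a chaperonin subunit, Gm16283 with Dtwd2, and Gm40094 with Pogz, a zinc finger protein of heterochromatin, each scored 9.18. Gm34121 with Herc2, a ubiquitin ligase, had the same score and was left out of the 20 by chromosome order. The peak at Pogz was the only one of these 20 in which the starts were known to run on the same strand, with the summit 1602 bp before the Pogz start.

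The coding partners were also counted by gene family. Member summits touched 295 of the 21887 coding genes (1.35%). Of 475 zinc finger genes 10 were among them (2.11%), namely Klf7, Klf16, Zbtb5, Zbtb7c, Zfp12, Zfp277, Zfp507, Zfp553, Zfp653 and Znfx1, with scores from 2.27 to 6.04. Of 62 genes for enzymes of histone lysines 3 were (4.84%, 1.01 to 13.5), Kmt2c with a score of 6.78, Setd5, and Setd7 with 4.22. Splicing and RNA-binding genes had 3 of 140 (2.14%), Hnrnpa3, Rbm34 and Rbm47, and solute carriers 7 of 375 (1.87%). Ribosomal genes had 2 of 175 (1.14%), Rps10 with 8.34 and Rps20 with 2.27. Genes of the respiratory chain had 0 of 109 (0.0%), and 3 counts in 109 would be 2.75%. The interval of each of the 6 families includes the 1.35% of all coding genes. With any nuclear summit counted, against 9.34% of all coding genes, the shares were 11.4% for zinc finger genes, 17.7% (9.20 to 29.5) for enzymes of histone lysines, 15.7% (10.1 to 22.8) for splicing and RNA-binding genes, 7.2% for solute carriers, 7.43% for ribosomal and 8.26% for respiratory chain genes.

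The 87 lncRNA-only peaks were of more than one kind. The nearest end of a coding gene lay at a median of 12402 bp, between 2 and 5 kb away in 29 peaks and over 50 kb away in 15. In 54 (62.1%, 51.0 to 72.3) the summit lay inside a coding gene. The promoter table also lists starts of coding transcripts inside the outer bounds of a gene, and 30 of the 87 (34.5%, 24.6 to 45.4) lay within 2 kb of such an internal start, at a median of 207 bp. The share was 39.1% (33.6 to 44.9) among the 299 peaks at neither kind of gene end. In all 26 of the 30 with known strands, the internal coding start ran opposite to the lncRNA. The annotation alone gives 177 of 183 (96.7%), so this too is the arrangement of the catalogue.

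Named peaks of this internal-start kind lay at genes of several roles. Gm45631 inside Clcn4, a chloride-proton exchanger, scored 16.2 with the summit 214 bp from the internal start. Gm38560 at Txnrd1, thioredoxin reductase, and 2310068J16Rik at Larp4, an RNA-binding protein, both scored 9.18. Gm33126 at Fam78a had peaks of 8.07 and 5.11, 38 and 63 bp from an internal start. B230319C09Rik lay 120 bp from an internal start of Tet3, which oxidises 5-methylcytosine, with a score of 7.95. Gm46766 at Cds2, an enzyme of phospholipid synthesis, scored 7.01.

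The remaining internal-start peaks among the 30 highest lncRNA-only scores lay between 6.04 and 6.08. They were 4930556M19Rik at Rai14, 1700016A09Rik and Gm51556 at Gse1, Gm46751 at Itprid2, and Gm39291 at Mtmr2, a lipid phosphatase. Further down, and named after their values were seen because of the known roles of their genes, were Gm31728 at Psen2, a presenilin (6.01), Gm36470 at Cdk6, a cell cycle kinase (4.54), Gm32255 at Egr2, a transcription factor induced by T cell receptor signals (3.81), and Gm33409 at Pdpk1, a kinase of the PI3K pathway (2.01). Scores of this kind ranged from 2.01 to 16.2 with a median of 4.82.

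The other 57 lncRNA-only peaks had no tabled coding start within 2 kb. Their median score was 4.54, and 31 of 57 summits (54.4%, 40.7 to 67.6) lay inside the lncRNA gene, against 9 of 30 (30%, 14.7 to 49.4) at internal coding starts. The highest, 172.9, was at AY036118 on chromosome 17, where an end of Rn18s-rs5, a pseudogene of 18S ribosomal RNA, also lay within 2 kb. It was the one peak of the 366 above a score of 20, and without it the highest lncRNA-only score was 16.2. Whether reads from repeated ribosomal DNA bear on this score was not tested.

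Next by score came 9330111N05Rik with 13.2, its summit 1060 bp before the start and 66972 bp from the nearest coding end, Gm41694 with 10.5, and Lncpint with 9.12. Lncpint is a lncRNA induced by p53 and described in lymphocytes, and its summit at position 31216650 of chromosome 6 lay 1824 bp inside the start and 182178 bp from the nearest coding end, that of Mkln1. 1700064M15Rik scored 8.67 with its summit 67 bp inside the start. Gm16796 and Gm31068 both scored 8.0, Gm51674 inside Dixdc1 scored 7.95, Gm8273 scored 7.69, and Gm33272 on the Y chromosome scored 7.09. Gm32700, Gm32755 and Gm13483 each scored 6.78, Gm41907 and B430319G15Rik 6.63, 2310047D07Rik 6.46, Gm17552 6.28, and Gm28707 and Gm51701 6.08.

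**Figure D3:**
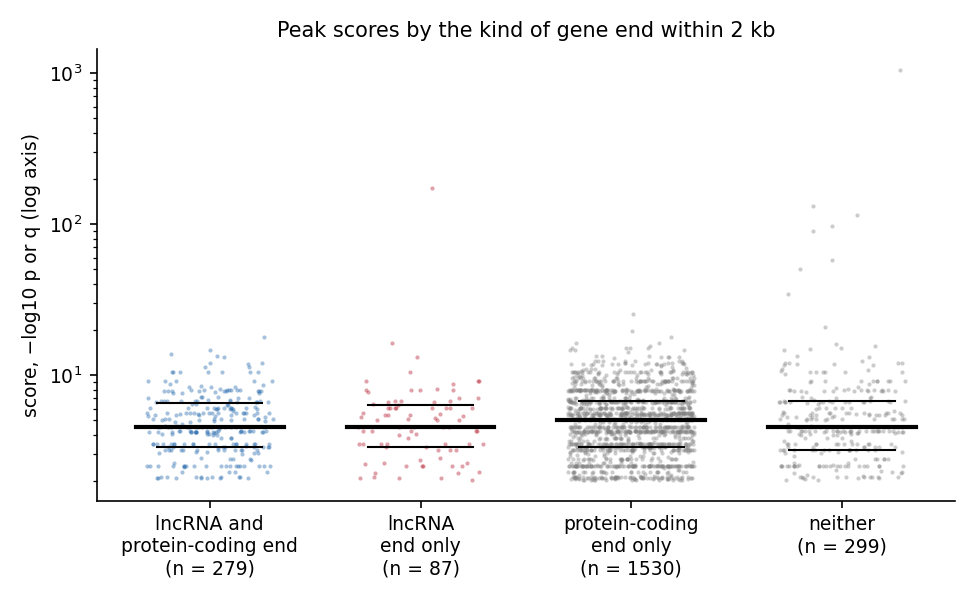
Score (−log10 p or q, logarithmic axis) of every nuclear peak by class of gene end, with the median of each class. The shared and lncRNA-only classes have the same median of 4.54, and AY036118 stands alone above 20 among them at 172.9.

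Scores did not separate the classes. Shared and lncRNA-only peaks both had a median of 4.54, with quartiles of 3.33 and 6.53 and of 3.33 and 6.37. Peaks at coding ends alone had a median of 5.04, peaks at neither end 4.54, and all nuclear peaks 4.92. A score above that of the median nuclear peak was found in 46.2% of shared (40.3 to 52.3), 49.4% of lncRNA-only (38.5 to 60.4) and 51.2% of coding-only peaks (48.6 to 53.7). Head-to-head pairs had a median of 4.59 and pairs of an lncRNA transcript end with a coding start 4.22.

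Base composition moved with the presence of a peak. Promoters of lncRNA genes with a summit within 2 kb of the start had a median G+C content of 67.7% where the peak was shared (n = 200) and 60.7% where it was lncRNA-only (n = 57), against 48.3% for the 9276 without a summit. Coding promoters had 66.3% with a summit and 55.3% without. A promoter was called CpG-rich at a G+C content of at least 50% and an observed-to-expected CpG ratio of at least 0.6 over its 300 bases. By that rule 76.0% (69.5 to 81.7) of shared, 54.4% (40.7 to 67.6) of lncRNA-only and 11.1% of peak-free lncRNA promoters were CpG-rich. Among the peak-free promoters the share was 55.1% (52.0 to 58.2) with an opposite-strand coding start within 2 kb and 5.62% without one. The lncRNA-only promoters were not split by nearness to an internal coding start, where 30 of the 87 lncRNA-only peaks lay.

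**Figure D4:**
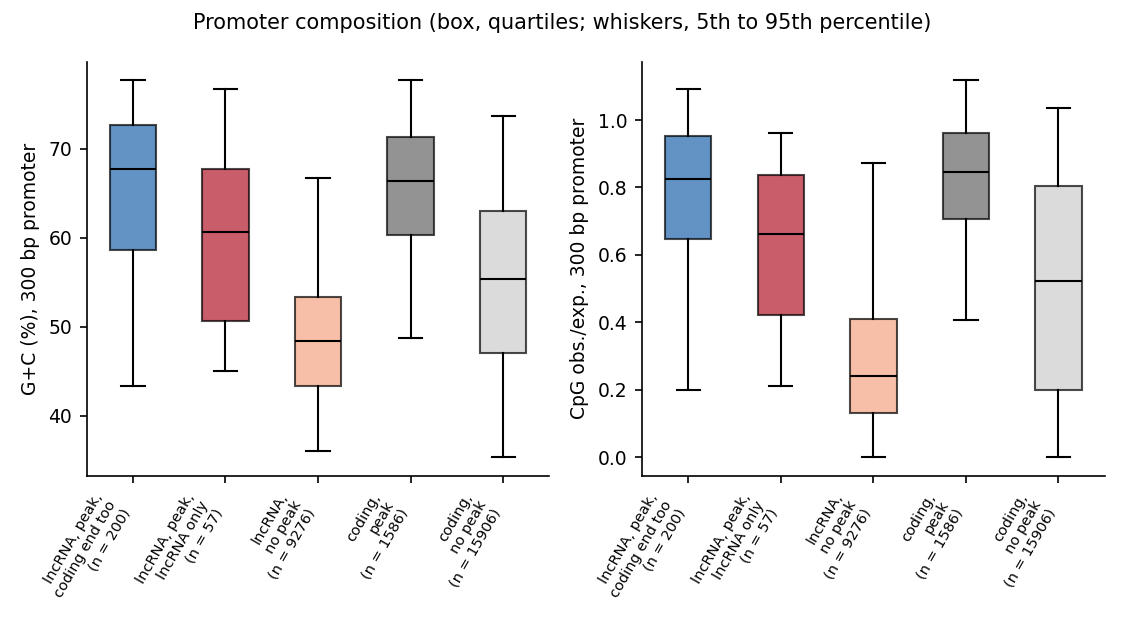
G+C content in % (left) and observed-to-expected CpG ratio (right) of 300 bp RefSeq promoters, as boxes of median and quartiles with whiskers from the 5th to the 95th percentile. The lncRNA promoters with a summit (medians 67.7% and 60.7% G+C) lie nearer to coding promoters with a summit (66.3%) than to lncRNA promoters without one (48.3%).

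CpG content and the coding neighbour were then set against each other. Here a gene was counted when a summit lay within 2 kb of its start. It was called paired when the outer start of an opposite-strand gene of the other kind lay within 2 kb. Internal coding starts were not used. The annotation has 177 lncRNA starts with only internal coding starts within 2 kb, the nearest on the opposite strand, and these count as unpaired. Of CpG-rich lncRNA promoters, 136 of 705 paired (19.3%, 16.4 to 22.4) and 47 of 510 unpaired ones (9.22%, 6.85 to 12.1) had a summit. Of CpG-poor ones, 38 of 501 paired (7.58%, 5.42 to 10.3) and 36 of 7817 unpaired ones (0.461%, 0.323 to 0.637) did. Within each CpG class the paired share was the higher, and within each pairing class the CpG-rich share was.

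Coding promoters gave 19.4% (16.7 to 22.4) when CpG-rich and paired, 16.5% (15.6 to 17.3) when CpG-rich and unpaired, 4.99% and 2.47% when CpG-poor. A CpG-rich lncRNA promoter with a coding partner thus had a summit about as often as the CpG-rich coding promoters with an lncRNA partner, many of which share the same peaks. A CpG-rich lncRNA promoter unpaired by this rule had a summit less often than an unpaired CpG-rich coding promoter. The intervals do not overlap, but they are too narrow because neighbouring genes share peaks. The unpaired coding promoters also include those that face another coding start, so these unpaired groups are not alike. Pairing with another coding gene gave a similar share. It was 15.3% (13.8 to 17) of coding genes with an opposite-strand coding start and no opposite-strand lncRNA start. With an opposite-strand lncRNA start, whether or not a coding one was also near, it was 14.4% (12.4 to 16.5). Coding genes with no opposite-strand outer start of either kind had 7.74% (7.31 to 8.19). For lncRNA genes the share was 14.4% with an opposite-strand outer coding start and 0.997% without.

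**Figure D5:**
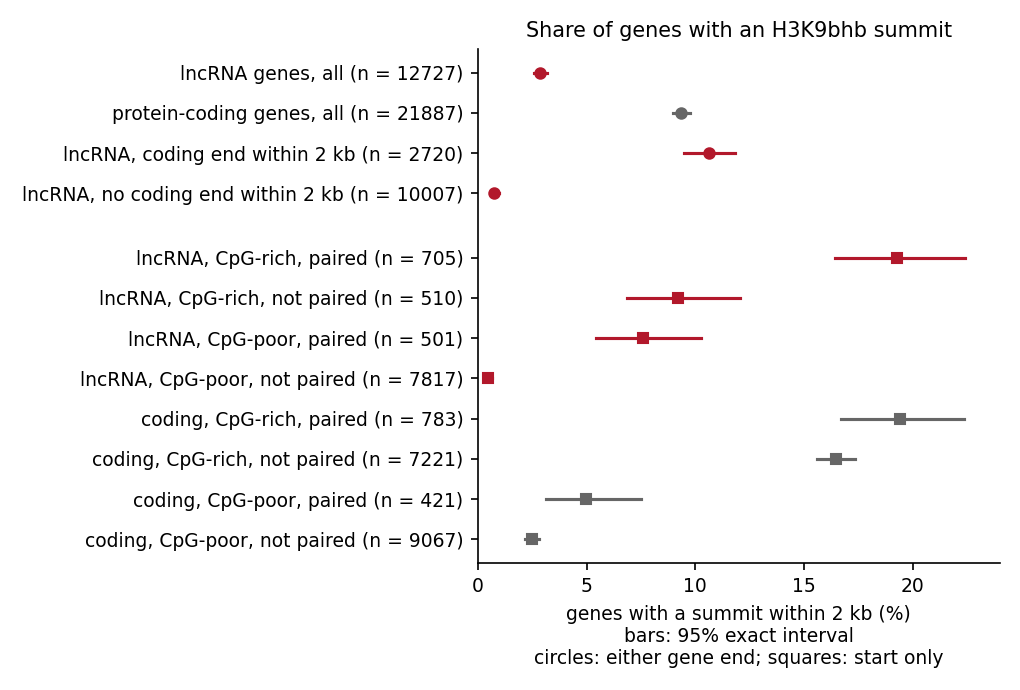
Percentage of genes with a summit within 2 kb (horizontal axis; bars, 95% exact intervals), at either gene end (circles) and at the start only (squares), for lncRNA (red) and coding genes (grey) by coding neighbour, CpG class and pairing. CpG-rich paired lncRNA genes reach 19.3% and CpG-poor unpaired ones 0.461%.

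Of the motifs searched, GGGCGG was in 68.0% of shared and 56.1% of lncRNA-only promoters with a summit, in 15.5% of lncRNA promoters without one and in 35.9% of all 27025 promoters of the table. CGGAAG was in 28.0% and 35.1%, against 8.68% and 17.2%. TATAAA was in 4.0% and 5.26%, against 16.0% and 14.2%. CCAAT was in 31.5% and 26.3%, against 36.0% and 38.0%. The NRF1 palindrome was in 1.0% and 1.75%, against 0.313% and 0.981%. TGACGTCA was in 2.0% of the shared and in 0 of the 57 lncRNA-only promoters, against 0.970% and 1.85%. Peak-free lncRNA promoters head to head with a coding start had the same median G+C as the lncRNA-only promoters, 60.7%. In them GGGCGG was in 51.5%, CGGAAG in 19.8% and CCAAT in 34.7%. TATAAA was in 7.07% of these head-to-head promoters, the NRF1 palindrome in 1.65% and TGACGTCA in 2.03%.

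The kind of annotation also moved with the share. Of 3319 lncRNA genes with a curated transcript 5.09% had a summit, and of 9408 with predicted transcripts only 2.08% did. Among genes without a coding end within 2 kb the values were 1.64% (1.15 to 2.25) and 0.504% (0.358 to 0.688). Genes with RIKEN clone names had 4.75%, numbered predicted genes 2.44%, LOC names 2.9% and other names 4.78%.

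Of the 275 distinct genes on the lists of known or named lncRNAs, 18 (6.55%, 3.93 to 10.1) had a summit, against 2.87% of all lncRNA genes. The median score of their peaks was 4.14, beside 4.54 for all 366. Antisense or opposite-strand genes, named after the coding gene they overlap or adjoin, had 14 of 221 (6.33%, 3.51 to 10.4), all at shared ends. The share was 2.87% over all lncRNA genes and 10.6% over those with a coding end within 2 kb. The list goes by the ending of the name and so also takes in Gas5, which had none. After Tspan2os came Mkln1os (8.07), Kbtbd8os (7.95), Kif16bos (7.89), Dgkeos (7.89), Zfas1 (5.76) and Phf2os1 (5.63). Foxd2os (4.29), Dmrta2os (4.22), Foxl2os (3.50, 3.50 and 3.07) and Hoxaas3 (3.17) adjoin genes for developmental transcription factors, and Tnfsf13os (2.74), Dhrs13os (2.49) and Cep83os (2.08) had the lowest scores.

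The host genes of small RNAs gave a few peaks, and their shares are to be read against 2.87% of all lncRNA genes. Of 22 snoRNA hosts, whose introns carry guide RNAs for ribosomal RNA modification, 2 had a summit (9.09%): Zfas1, beside Znfx1, and Dancr, with 2.51 and the summit 177 bp inside its start. Of 15 miRNA hosts 1 had a summit (6.67%): Dleu2, which carries Mir15a and Mir16-1, with 2.75. Over the annotation, 8 of 216 lncRNA genes whose span holds a miRNA or snoRNA had a summit (3.7%).

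Malat1, an abundant nuclear RNA, was the 1 of 11 nuclear and X-inactivation lncRNAs with a peak (9.09%), with a score of 4.06 and the summit 423 bp inside its start. Of 14 lncRNAs described in lymphocytes 3 had one (21.4%, 4.66 to 50.8), Lncpint, Dleu2 and Malat1, all lncRNA-only. The share over all lncRNA genes was 2.87%, and with 14 or fewer genes a list the intervals are wide. None lay at Gas5, Mir155hg, Mir17hg, Neat1 or Morrbid. None of 8 imprinted lncRNAs had a peak (0.0%), and 3 counts in 8 would be 37.5%.

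A few genes had more than one peak. The 3 summits of Foxl2os lay 91, 890 and 1582 bp before its start, on the side of Foxl2, a forkhead factor of the ovary. Gm46910 at Nkx3-2 had peaks of 8.0 and 4.26, Gm28707 near Hivep1 6.08 and 2.08, 1700016A09Rik at Gse1 6.08 and 3.50, 4931440P22Rik at Tiparp 3.50 and 2.08, and 4930549G23Rik 3.33 and 3.17 at opposite ends, beside Cep192 and Seh1l. Gt(ROSA)26Sor and Gm33126 are given above. At the limit of 2 kb, the farthest members were Gm32510 at 1995 bp (score 6.83), Gm30377 at 1987 bp (5.63) and Gm52887 at 1954 bp (4.54). The nearest summits left out were at 2007 bp from Gm30368 (2.17), 2035 bp from Gm26560 (2.12) and 2085 bp from Ppifos (8.70).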

How the data were processed

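The peak list of 1 immunoprecipitation library was used. Per the submitters' processing notes, MACS2 2.1.2, Bowtie2 2.3.5, Trimmomatic 0.39 and FastQC 0.11.8 were the tools and mm10 the build. Their settings, and whether the input served as control, are not stated in the labels. Each 1 bp summit has a deposited score, the −log10 of a p or q value by the authors, and it was used only within this list.

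Summits (2315 rows, 2204 peaks, 9 of them mitochondrial and left out) were set against RefSeq genes of GRCm38.p6. That table has no strand, so strand was taken from the RefSeq promoter table where listed. With 1 library no test was run. Shares have 95% exact intervals, and a share of 0 is given its limit as 3 counts. The members and lists were chosen with earlier results of these data known. Named are the 30 highest-scoring lncRNA-only and 20 highest-scoring shared peaks (ties by chromosome and coordinate), list members with a peak, genes with several peaks and the 3 peaks on each side of the limit; others are said to be chosen after their values were seen. Coding partners were grouped by symbol. The promoters shown hold the summit and come from list members and the highest scores of each class.

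The distance search was tested on simulated data: 200 of 200 seeded summits were found. Windows of 1 kb and 5 kb, other summits, score limits, merging and gene starts only were tried. Tools were Python 3.11.15 with matplotlib 3.10.9, scipy 1.17.1, pandas 2.3.3 and numpy 2.4.6.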

Additional observations from a re-analysis of the deposited data

How the results depend on the processing

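Of 61 alternative values, 45 stayed within the counting error of the value given (for counts, within 1.5 times) and 16 moved. The share of genes with a summit stayed lower for lncRNA than for coding genes wherever it was recomputed. The median scores of lncRNA-only and shared peaks, equal as given, changed order between settings. They were 4.594 and 4.569 with a window of 1 kb, and 4.536 and 4.540 with the highest-scoring summit. With a window of 1 kb, 13.5% of nuclear peaks lay at an lncRNA end, 28.6% of these had no coding end, 2.32% of lncRNA and 8.46% of coding genes had a summit, and the median distance was 337 bp. With 5 kb the shares were 21.5%, 15.6%, 3.87% and 10.5%. A wider window admits more coding ends and also more lncRNA ends. Their separate effects on the lncRNA-only share were not measured. Keeping the 50% of nuclear peaks with the highest scores left 173 peaks, 43 of them lncRNA-only, at 174 lncRNA genes (1.37%, against 4.71% of coding genes). With gene starts only, where strand is known, 11.8% of nuclear peaks were members and 29.2% of them had no coding start; for gene shares this setting was added after seeing the data. The highest-scoring summit, the removal of scores over 20 and the merging of summits within 10 kb moved none of the values recomputed. No paired analysis was possible because there is 1 immunoprecipitation library and no replicate. Peak width, read depth and the spread between cultures were not measured.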
